A study of Mus musculus with 12 samples.

Results

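The genes described here build the kinetochore or guard it: Cenpa, Cenpf, Cenph, Cenpk, Ndc80, Nuf2, Spc25, Mad2l1, Bub1b and Sgo1. They were taken as a list of 10 named genes, and a gene counted as measured when a non-control probe carried a RefSeq accession that maps to its symbol. By this rule 9 of the 10 were measured, among 16535 named genes on the array. No probe matched Cenpf, so it has no expression value here. Cenpk had 2 probes and the other 8 had 1 each.

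RNA came from the esophagus and the liver of 6 male mice, with 1 single-colour array per organ and mouse, so each group has n = 3. TG mice had the genotype Col1a1tetO-Nanog/+;Rosa26rtTA/+, in which doxycycline lets the rtTA activator, placed at Rosa26, drive a Nanog transgene placed at Col1a1. CTR mice had the genotype Col1a1+/+;Rosa26rtTA/+ and carried the activator alone. All 6 mice, TG and CTR alike, had a mixed 129Sv/C57BL6 background, were about 8 months old and drank 0.2 mg/ml doxycycline in 7.5% sucrose for 48 h. Nanog is a transcription factor of pluripotent cells, and the series title asks how it acts on the mitotic program of layered adult epithelia, of which the esophagus is one.

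The kinetochore is the protein plate that joins each centromere to the spindle. CENP-A replaces histone H3 in centromeric nucleosomes, the inner kinetochore is laid down on that chromatin, and the NDC80 complex at the outer face grips microtubules. Until every kinetochore is attached, the spindle checkpoint holds back anaphase by blocking the anaphase-promoting complex. Many of these genes are transcribed mainly in late S phase, G2 and mitosis, so their RNA in a tissue is often read together with the share of dividing cells. In the esophagus division takes place in the basal layer, whereas adult hepatocytes rarely divide.

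Promoters of such genes often carry a cell cycle genes homology region (CHR), with the letters TTTGAA or TTCGAA, and a CCAAT box. RefSeq promoter windows (GRCm38.p6, 250 bases before to 50 after a gene's start) were found for all 10 genes, as 12 windows because Cenpk has 3. Searched on both strands, a CHR lay in the windows of 6 genes, namely Cenpa, Cenpf, Ndc80, Spc25, Bub1b and Sgo1, against 19.2% of all 32851 windows in the table. In all 6 of these genes a CHR lay wholly within the 50 bases after the start, as it did in 2.5% of all windows; this position was chosen for counting after the matches were seen. A CCAAT box accompanied the CHR in 5 of the 6, the exception being Ndc80. Among all windows 6316 held a CHR, and 2472 of these held a CCAAT box too. Both motifs lay in 5 of the 12 windows, against 7.5% of all windows. A CCAAT box, with or without a CHR, lay in 9 of the 12, against 37.4% of all windows. The letters TTCCCGC, an E2F site, were found in the windows of 2 genes, Cenph and Cenpk, against 4.6% of all windows. No matches of different motifs overlapped in these windows. The 6 stretches with a CHR are shown because they show the shared place of this motif, from 150 bases before to 50 after the start, 5′ to 3′ on the gene's strand, with CHR and CCAAT letters in capitals (TTCAAA and ATTGG are the same motifs read on the opposite strand).
Cenpa, chr5:30666736-30666935, plus strand: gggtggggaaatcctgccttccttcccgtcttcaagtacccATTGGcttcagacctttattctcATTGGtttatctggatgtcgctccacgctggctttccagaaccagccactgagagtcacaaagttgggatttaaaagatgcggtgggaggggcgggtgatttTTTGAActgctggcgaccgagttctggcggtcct
Cenpf, chr1:189688037-189688236, minus strand: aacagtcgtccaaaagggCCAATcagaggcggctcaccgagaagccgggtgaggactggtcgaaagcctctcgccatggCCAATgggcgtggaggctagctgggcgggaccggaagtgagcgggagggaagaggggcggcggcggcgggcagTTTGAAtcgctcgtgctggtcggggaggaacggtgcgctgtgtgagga
Ndc80, chr17:71526808-71527007, minus strand: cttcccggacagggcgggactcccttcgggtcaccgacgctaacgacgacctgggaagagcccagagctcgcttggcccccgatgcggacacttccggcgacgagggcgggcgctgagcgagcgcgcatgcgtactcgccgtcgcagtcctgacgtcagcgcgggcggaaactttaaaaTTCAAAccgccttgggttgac
Spc25, chr2:69206164-69206363, minus strand: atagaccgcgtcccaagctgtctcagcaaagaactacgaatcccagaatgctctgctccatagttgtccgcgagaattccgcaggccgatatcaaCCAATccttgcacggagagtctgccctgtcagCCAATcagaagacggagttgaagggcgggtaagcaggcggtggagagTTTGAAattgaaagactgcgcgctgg
Bub1b, chr2:118598061-118598260, plus strand: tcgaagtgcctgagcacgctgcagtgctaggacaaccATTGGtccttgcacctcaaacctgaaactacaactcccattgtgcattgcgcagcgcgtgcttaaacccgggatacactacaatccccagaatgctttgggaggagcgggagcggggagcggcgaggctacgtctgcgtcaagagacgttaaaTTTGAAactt
Sgo1, chr17:53689266-53689465, minus strand: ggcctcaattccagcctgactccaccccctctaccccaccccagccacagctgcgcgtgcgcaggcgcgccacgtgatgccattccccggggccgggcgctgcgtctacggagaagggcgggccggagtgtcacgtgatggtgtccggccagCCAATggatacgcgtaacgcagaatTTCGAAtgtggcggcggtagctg
Neither CHR spelling was found in the windows of Nuf2, Mad2l1, Cenph and Cenpk. The matches are letters in a window and say nothing of binding.

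The share of probes well above background ran from 56.4% to 81.8% over the arrays, and precision is set by how few arrays there are. On 0 of the 12 arrays did the single Nanog probe rise clear of background, so the arrays do not show induction of the transgene. Keratinocyte markers were well above background on all 6 esophagus arrays and the 3 matched hepatocyte markers on all 6 liver arrays. Some of each, such as Krt5 and Alb, were also above background in the other organ. Summed basal keratinocyte markers stood at 8.06 to 8.62 log2 on esophagus and 0.12 to 0.82 on liver arrays. Summed hepatocyte markers stood at 10.09 to 10.42 on liver and −4.72 to −1.10 on esophagus arrays. These levels go with the organ labels. In the esophagus, summed thymocyte markers (4 of 5 on the array) stood at 2.46 log2 on CTR2, against −1.58 to −1.26 on the TG arrays and −1.25 and −2.11 on CTR1 and CTR3. This sum on CTR2 is mostly Dntt (2.15) and is not particular to thymocytes. It stood at 1.84 to 3.05 on the liver arrays, where Rag1 was not well above background. Ptcra, on the same list, was −4.13 on CTR2, within the −4.62 to −3.99 of the other esophagi. Rag1, which cuts antigen receptor genes in developing lymphocytes, was well above background on CTR2 alone of the 6 esophagi, at −0.02, while its partner Rag2 was above background on none. Clock genes, which usually keep a like phase in the organs of one animal, did not match between the organs labelled TG1, or between those labelled CTR1. The median of 8 clock genes (Per1, Per2, Per3, Dbp, Tef, Nr1d1, Nr1d2 and Ciart, listed after seeing the data) relative to the organ's mean was −0.82 in the esophagus and 0.66 in the liver of TG1, and 0.54 in the esophagus and −1.29 in the liver of CTR1. In the other 4 mice both organs lay on the same side of their mean, and 3 genes of the opposite phase (Arntl, Clock and Nfil3) gave the same 4 matched and 2 unmatched mice. Whether arrays of these mice carry the wrong label was not tested. Results on the 9 genes and the wider lists are therefore given also without CTR2 and without TG1 and CTR1.

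In the TG esophagus all 9 measured genes had a higher mean than in the CTR esophagus, with a median difference of 0.85 on the log2 scale, but none passed the test over all genes. Levels are log2 signals relative to the 75th percentile of their array, differences are TG minus CTR from limma, and a gene passed at an adjusted p under 0.05 (Benjamini-Hochberg over all genes tested). Of the 23208 genes tested, 0 passed (0%), with 325 higher and 410 lower at an unadjusted p under 0.05. Differences above 0 made up 49.6% of all genes, with a median of −0.0034. Of the 9 genes, 2 were higher at an unadjusted p under 0.05, Cenpa and Mad2l1, where 1.4% of all genes were. In whole-organ RNA, the share of dividing cells, the RNA per dividing cell and the make-up of the tissue cannot be told apart.

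Cenpa (NM_007681), the centromeric histone, differed most. Its level was −0.53, −0.97 and −1.59 on the TG esophagus arrays, against −1.94, −2.59 and −3.36 on the CTR arrays. The groups did not overlap, and the difference was 1.60 (SE 0.40), or 3.02-fold (limma, unadjusted p = 0.00251, adjusted p = 1). Its 95% confidence interval ran from 0.71 to 2.49. Cenpa was the only gene of the 9 in which CTR2 was not the highest control.

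The inner kinetochore genes Cenph and Cenpk, whose proteins sit in one complex on centromeric chromatin, showed small differences. Cenph (NM_021886) had levels of −1.85, −2.58 and −2.57 in TG esophagi, against −3.43, −1.44 and −2.59 in CTR esophagi. The highest of the 6 arrays was the control CTR2, and the difference was 0.15 (SE 0.85). Cenpk (NM_021790) had levels of −2.46, −3.01 and −2.79 in TG esophagi, against −3.56, −2.32 and −3.00 in CTR esophagi. Again CTR2 was highest, and the difference was 0.21 (SE 0.38). The second Cenpk probe gave 0.32 (SE 0.42). Without CTR2 the differences of Cenph and Cenpk were 0.68 and 0.53, and without both TG1 and CTR1 they were −0.56 and −0.24, so the sign depended on which arrays entered.

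Of the NDC80 complex, which binds microtubules, the 3 subunits listed here all had higher means in TG. Nuf2 (NM_023284) had levels of −1.57, −2.08 and −2.39 in TG esophagi, against −3.10, −2.55 and −3.06 in CTR esophagi. The groups did not overlap, and the difference was 0.89 (SE 0.43). Ndc80 (NM_023294), the subunit that makes the microtubule contact together with Nuf2, had levels of −3.24, −3.99 and −4.35 in TG esophagi, against −5.09, −4.20 and −4.84 in CTR esophagi. TG3 lay below CTR2, and the difference was 0.85 (SE 0.77). Spc25 (NM_025565), at the complex's inner end, had levels of −1.52, −1.84 and −2.64 in TG esophagi, against −2.81, −1.77 and −2.81 in CTR esophagi. CTR2 lay between TG1 and TG2, and the difference was 0.46 (SE 0.39).

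Among the checkpoint genes, Mad2l1 (NM_019499), whose protein Mad2 binds and holds Cdc20, had levels of −1.63, −1.64 and −1.96 in TG esophagi, against −2.94, −1.96 and −3.07 in CTR esophagi. TG3 and CTR2 were level, and the difference was 0.91 (SE 0.36, limma, unadjusted p = 0.0287, adjusted p = 1). Bub1b (NM_009773), which encodes the checkpoint protein BubR1, had levels of −1.22, −1.98 and −2.31 in TG esophagi, against −3.15, −2.61 and −3.28 in CTR esophagi. The groups did not overlap, and the difference was 1.18 (SE 0.64), or 2.26-fold. Sgo1 (NM_028232), which shields centromeric cohesin until anaphase, had levels of −0.52, −0.85 and −1.5 in TG esophagi, against −1.89, −0.99 and −2.07 in CTR esophagi. TG3 lay below CTR2, and the difference was 0.69 (SE 0.38).

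**Figure D1:**
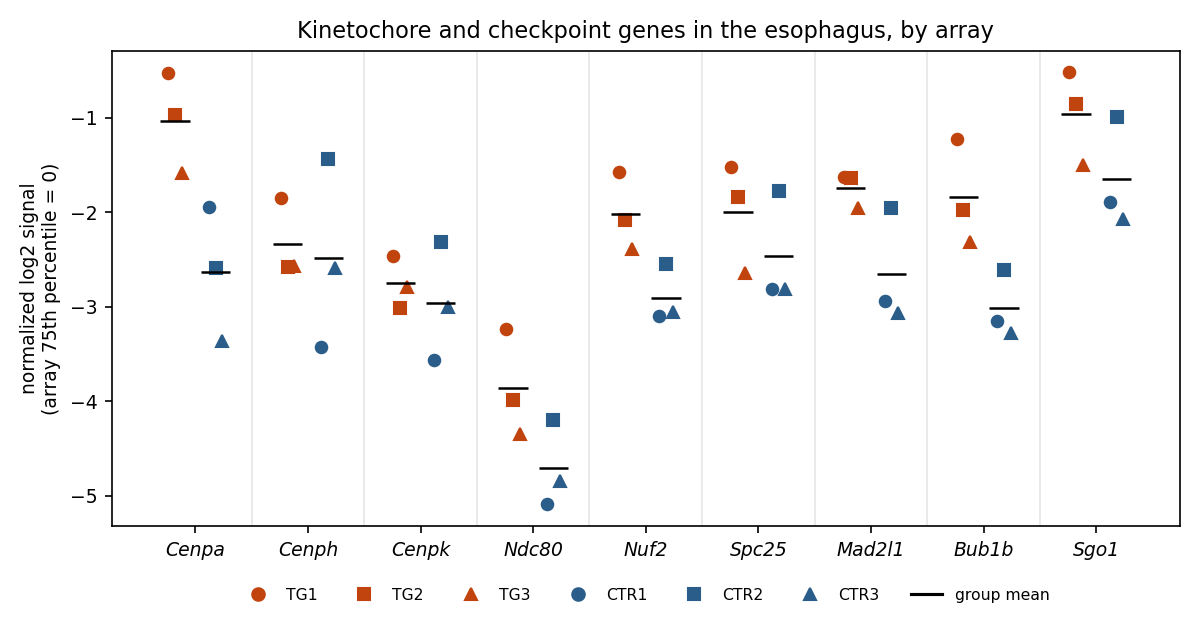
Normalized log2 signal (vertical axis; 0 is the array's 75th percentile) of the 9 measured genes on the 3 TG (orange, left) and 3 CTR (blue, right) esophagus arrays, with bars at the group means. TG and CTR do not overlap for Cenpa, Nuf2 and Bub1b, and CTR2 (blue squares) is the highest control for every gene except Cenpa.

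The 3 genes whose groups did not overlap, Cenpa, Nuf2 and Bub1b, stand against 6.32% of all genes tested with every TG array above every CTR array. As a median over the 9 relative to the control mean, TG1, TG2 and TG3 stood at 1.13, 0.80 and 0.36, and CTR1, CTR2 and CTR3 at −0.28, 0.64 and −0.26. CTR2 thus lay between TG2 and TG3. TG1 was the highest of the 6 arrays for 7 genes and CTR2 for the other 2. The group means of these array medians were 0.76 ± 0.39 in TG and 0.03 ± 0.53 in CTR (SD, n = 3 each).

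Leaving out single arrays moved these values. With fewer arrays a separation is more common among all genes, and each count is set beside that share. Without CTR2, the array with the Rag1 signal, 8 of the 9 genes had every TG array above every CTR array, where 14.7% of all genes did, and the median difference was 1.06. Without TG3, 6 of the 9 were separated, against 10.1% of all genes. Without both TG1 and CTR1, 3 were separated, against 16.5% of all genes, and the median was 0.36. TG1 and CTR2 were hybridised on the same slide, the only one with both genotypes of esophagus, and within it the median difference TG1 minus CTR2 was 0.47. Cenpa stayed at 1.23 or more with any single array left out. Without CTR2 the differences were 1.62 for Cenpa, 1.06 for Nuf2, 1.11 for Ndc80, 0.81 for Spc25, 1.26 for Mad2l1, 1.38 for Bub1b and 1.02 for Sgo1, each at or above its value with all arrays. Without both TG1 and CTR1 they were 1.69 for Cenpa, 0.57 for Nuf2, 0.35 for Ndc80, 0.05 for Spc25, 0.71 for Mad2l1, 0.80 for Bub1b and 0.36 for Sgo1, so that all except Cenpa were smaller. None passed in either form.

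**Figure D2:**
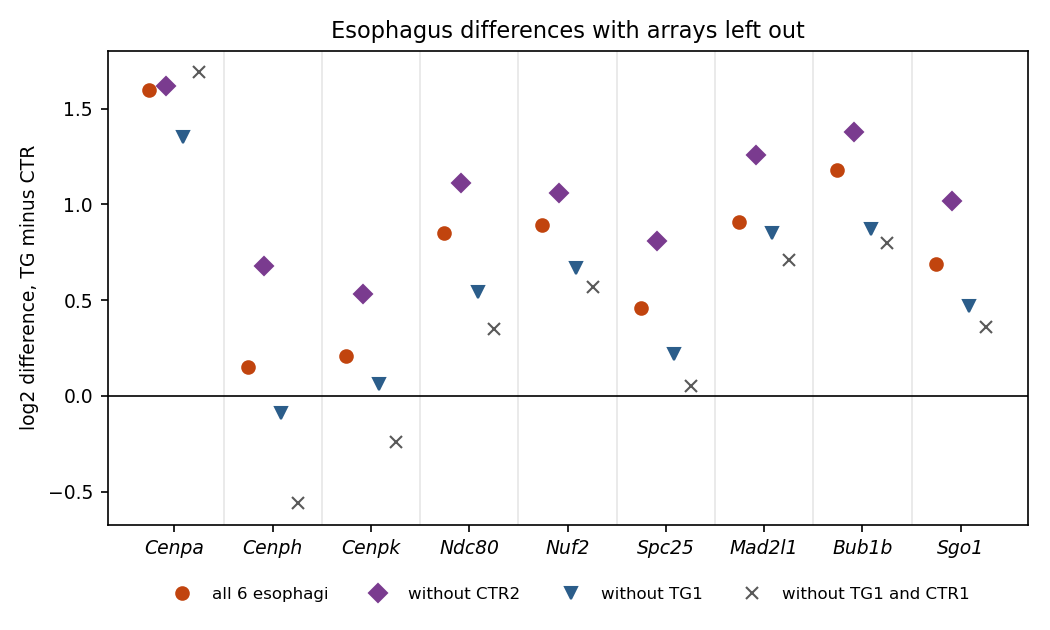
Difference TG minus CTR (log2, vertical axis) in the esophagus for each gene with all 6 arrays, without CTR2, without TG1, and without both TG1 and CTR1. Cenpa keeps 1.35 or more in each, whereas Cenph and Cenpk fall to −0.56 and −0.24 without TG1 and CTR1.

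Markers of other cell types, and some of the epithelium itself, also differed between these arrays. Summed heart markers (5 of 5 on the array, all well above background on all 6 arrays) stood at 2.86 to 3.13 log2 in TG and 3.90 to 7.46 in CTR esophagi, without overlap. Summed airway markers stood at −0.07, 4.96 and 0.11 in TG1, TG2 and TG3, against 7.97, 4.85 and 5.56 in CTR1, CTR2 and CTR3. Fat markers stood at 4.95 to 6.77 in TG and 6.35 to 7.18 in CTR. Among them Lep was lower on every TG array (−7.77 to −4.94, against −2.66 to −1.44 in CTR), and Plin1, Adipoq, Fabp4 and Cidec overlapped. Leukocyte markers, whose sum is mostly Lyz2, stood at 6.0 to 7.20 in TG and 6.22 to 7.0 in CTR. Lck, on the same list, was −0.09 on CTR2, against −4.12 to −2.67 on the other esophagi, whereas Ptprc, Cd3e and Cd79a did not stand apart on CTR2. Summed hepatocyte markers (3 of 5 on the array), low in this organ, stood at −3.55, −4.72 and −4.14 in TG and −3.00, −1.10 and −1.21 in CTR, also without overlap. Summed smooth muscle markers overlapped, at 8.17 to 8.58 in TG and 8.33 to 8.78 in CTR. Myh11, a myosin of that muscle, was lower on every TG array (3.58 to 4.21, against 4.62 to 5.04 in CTR). So was Tagln (5.62 to 6.31, against 6.42 to 7.03), whereas Acta2, Cnn1 and Des overlapped. Striated muscle markers lay at 9.94 to 9.98 in TG and 9.87 to 10.16 in CTR. Basal keratinocyte markers, whose sum is mostly Krt5, overlapped at 8.11 to 8.52 in TG and 8.06 to 8.62 in CTR. Among them Col17a1, which anchors basal cells, was higher on every TG array (5.10 to 5.28, against 4.54 to 5.06 in CTR), whereas Krt5, Krt14, Trp63 and Itgb4 overlapped. Summed suprabasal markers overlapped too, at 8.22 to 8.72 in TG and 8.21 to 8.68 in CTR. Of the 5 suprabasal markers, Sprr1a (4.55 to 5.69 in TG, against 3.0 to 4.2 in CTR), Krt6a (−0.02 to 0.76, against −1.29 to −0.15) and Ivl (−2.63 to −1.80, against −4.10 to −2.99) were higher on every TG array. Krt4 and Krt13 overlapped. Of all genes tested 6.32% had every TG array above every CTR array. The part of any of these transcripts in the differences of the kinetochore genes was not tested.

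In the liver the genes showed no common direction, with a median difference TG minus CTR of 0.15 log2 over the 9. None of those tested passed, and none of the 9 had every TG array above every CTR array (8.42% of all genes tested did). Of 21247 genes tested in the liver 0 passed (0%), with 949 higher and 350 lower at an unadjusted p under 0.05. Differences above 0 made up 66.5% of all genes, whose median was 0.13 and fell to 0.02 with quantile normalization. With that normalization the median over the 9 genes was −0.03, so no direction holds. Without liver TG1 and CTR1 the median was 0.26 and 2 of the 9 genes were separated, where 37.2% of all genes were. Cenph, Ndc80 and Bub1b were not tested, because neither liver group had them well above background on all 3 arrays. Their values still enter the medians and separation counts over the 9.

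Nuf2 came closest, at −3.31, −2.25 and −3.43 in TG livers, against −3.23, −3.94 and −4.72 in CTR livers. CTR1 lay above TG1 and TG3, and the difference was 0.96 (SE 0.43, limma, unadjusted p = 0.0489, adjusted p = 0.761). Cenpa, which differed most in the esophagus, was at −1.52, −1.08 and −1.96 in TG livers, against −1.51, −1.97 and −1.54 in CTR livers. TG2 lay above all 3 controls and the other TG arrays within their range, with a difference of 0.15 (SE 0.40). Spc25, at −0.50, −0.80 and −0.24 in TG and −0.86, 0.13 and −0.26 in CTR livers, differed by −0.18 (SE 0.39).

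Mad2l1 was at −2.31, −2.40 and −1.94 in TG livers, against −2.46, −1.36 and −2.23 in CTR livers, a difference of −0.20 (SE 0.36). Cenpk was at −2.04, −2.46 and −1.99 in TG livers, against −2.97, −1.70 and −2.52 in CTR livers, a difference of 0.23 (SE 0.38). Sgo1 was at −3.03, −2.84 and −2.38 in TG livers, against −3.56, −2.59 and −3.14 in CTR livers, a difference of 0.34 (SE 0.38). In all 3 of these genes CTR2 was the highest control.

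The dim genes varied most among TG livers. Ndc80 was at −5.43, −4.47 and −1.76 in TG livers, against −5.33, −5.19 and −5.80 in CTR livers, and was well above background on 2 TG and 0 CTR arrays. With each CTR array's own lowest signal well above background as the floor, the measured TG mean was 1.92-fold above the CTR mean. This ratio is not a lower bound, because TG1 was itself not well above background. It rests on TG3, without which the measured difference fell to 0.49 log2, against 1.55 with all arrays. With 1 floor for all arrays, the highest of these, the difference was 0.74. Bub1b was at −6.75, −5.04 and −3.72 in TG livers, against −5.55, −5.28 and −4.66 in CTR livers, above background on 2 TG and 0 CTR arrays. Cenph was at −6.37, −5.15 and −2.46 in TG livers, against −4.50, −4.08 and −4.54 in CTR livers. In all 3, TG3 was the highest and, for Cenph and Bub1b, TG1 the lowest of the 6 livers. Liver TG3 also had the highest share of probes above background, 81.8%, and the undetected Nanog probe read −5.62 there, against −6.82 and −7.09 on TG1 and TG2. The part of this array's signal in the dim genes was not tested.

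**Figure D3:**
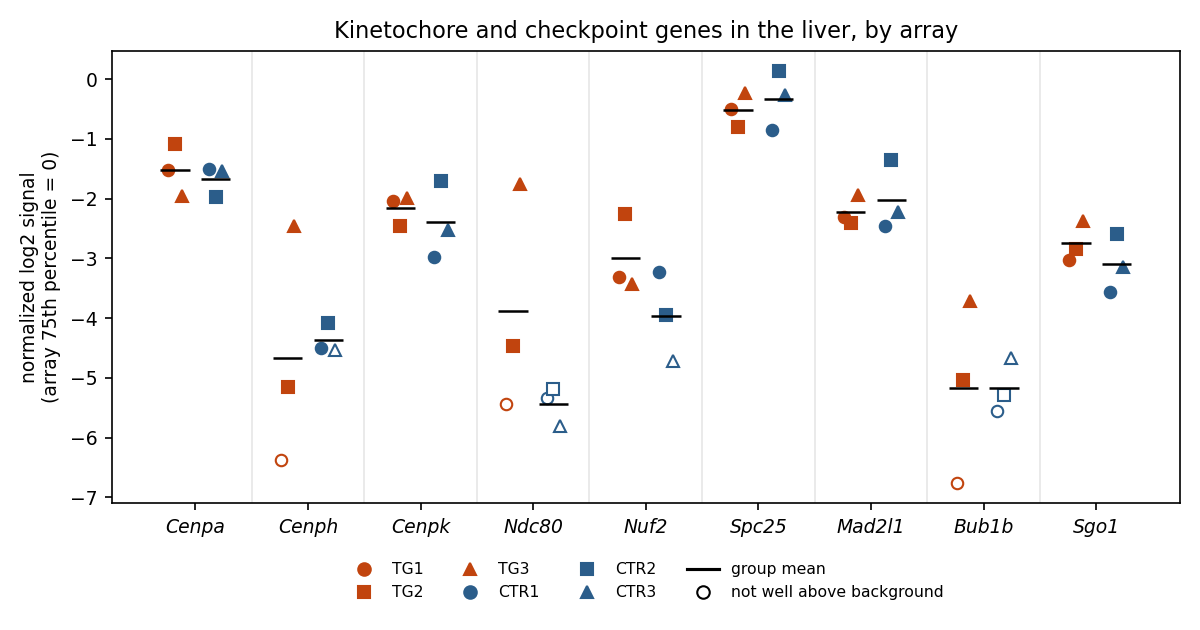
Normalized log2 signal (vertical axis; 0 is the array's 75th percentile) of the same 9 genes on the 3 TG (orange, left) and 3 CTR (blue, right) liver arrays, with bars at the group means and open symbols where the probe was not well above background. TG and CTR overlap for every gene, and TG3 stands apart for Cenph, Ndc80 and Bub1b.

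No gene passed the test of whether its esophagus difference was larger than its liver difference, out of 24438 genes of which 0 passed (0%). Cenpa had the smallest p, with a difference of differences of 1.44 (SE 0.56, limma, unadjusted p = 0.0284, adjusted p = 0.994). Bub1b followed in size at 1.18 (SE 0.91) and Mad2l1 at 1.11 (SE 0.50, unadjusted p = 0.0516 by limma). Spc25 stood at 0.65 (SE 0.56), Cenph at 0.44 (SE 1.2) and Sgo1 at 0.35 (SE 0.54). Cenpk at −0.03 (SE 0.54), Nuf2 at −0.08 (SE 0.61) and Ndc80 at −0.70 (SE 1.08) were not above 0. Cenph, Ndc80 and Bub1b were below the detection rule in liver and entered this test through the esophagus. Their place in this order, and the median, therefore rest partly on liver signals near background. The median over the 9 was 0.44, and it was 0.96 without esophagus CTR2, 0.01 without esophagus TG1 and CTR1 and 0.44 without liver TG1 and CTR1.

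**Figure D4:**
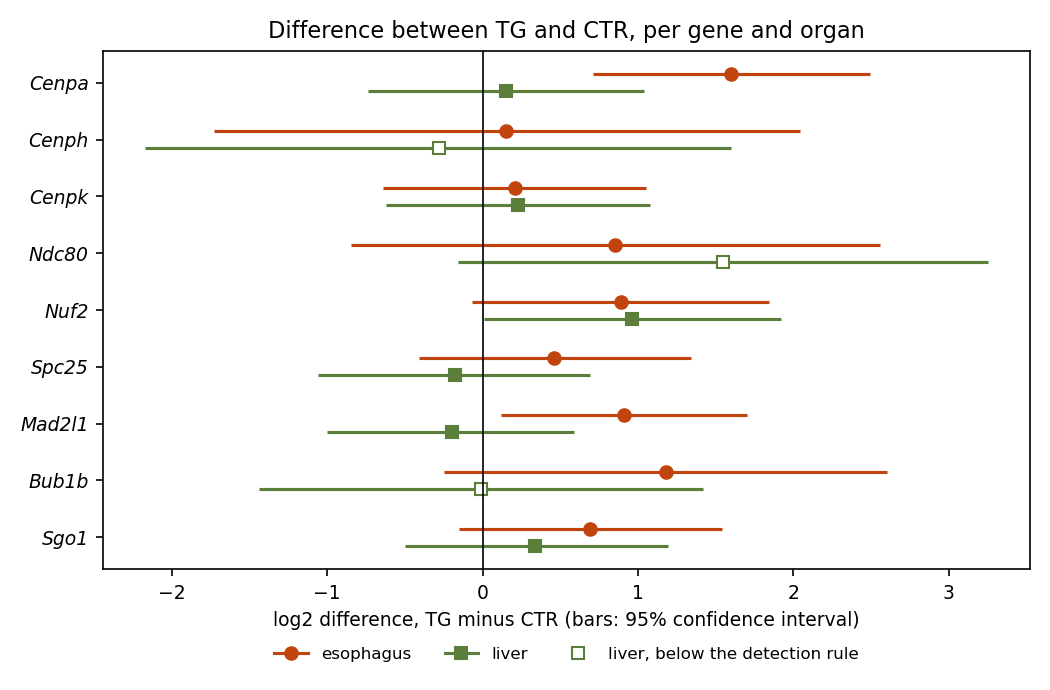
Difference TG minus CTR (log2, horizontal axis) of each gene in esophagus (circles) and liver (squares), with 95% confidence intervals; open squares mark genes below the detection rule in liver. In esophagus the intervals of Cenpa (0.71 to 2.49) and Mad2l1 (0.12 to 1.70) lie above 0 before adjustment, and in liver that of Nuf2 (0.01 to 1.92).

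Between the control organs 3 of the 9 genes passed, and not in one direction. Bub1b and Sgo1 were higher in CTR esophagus than in CTR liver, where 26.8% of all 23365 genes passed as higher, and Spc25 was lower, where 33.4% passed as lower. Bub1b, Cenph, Nuf2 and Ndc80 were well above background on all 3 CTR esophagi but not on all 3 CTR livers. They entered this test through the esophagus alone, where they were higher, and their differences rest partly on liver signals near background. Spc25 averaged −2.46 ± 0.60 in CTR esophagus and −0.33 ± 0.50 in CTR liver (SD, n = 3 each), a difference of −2.13 (SE 0.39, limma adjusted p = 0.000945). Sgo1 averaged −1.65 ± 0.58 in CTR esophagus and −3.10 ± 0.49 in CTR liver (SD, n = 3 each), a difference of 1.45 (SE 0.38, limma adjusted p = 0.00753). Bub1b was not well above background on any CTR liver, and averaged −3.01 ± 0.36 in CTR esophagus and a measured −5.17 ± 0.46 in CTR liver (SD, n = 3 each; limma adjusted p = 0.0145). With each liver array's own floor it was at least 3.61-fold higher in CTR esophagus, and with 1 floor for all arrays the difference was 0.96 log2, so the size of the bound depends on the floor. Without esophagus CTR2 the adjusted p of Bub1b was 0.0517, and with slide as a fixed block 0.0576.

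Nuf2 (1.06, SE 0.43, limma adjusted p = 0.0546), Cenpa (−0.96, SE 0.40, limma adjusted p = 0.0603) and Cenph (1.89, SE 0.85, limma adjusted p = 0.0773) did not pass. These 3 calls depended on the setting. Cenph passed in 6 of 27 other settings, among them quantile normalization (adjusted p = 0.0325) and the common floor (0.0465). It also passed with normexp and quantile normalization (0.0151) and with the authors' deposited table (0.0151), which is nearly the same processing. Nuf2 also passed in 6 of 27, among them the replicate number as a block (adjusted p = 0.0373) and the spread estimated from tested genes alone (0.0476). Cenpa passed in 3 of 27, with that block (adjusted p = 0.0346), without esophagus CTR1 (0.0201) and without both esophagus TG1 and CTR1 (0.0195). With the block 5 genes passed in all. Mad2l1 (−0.64, SE 0.36) did not pass either, except without esophagus CTR2 (adjusted p = 0.0306), and Cenpk (−0.56, SE 0.38) and Ndc80 (0.73, SE 0.77) passed in none of the 27 settings. The esophagi and livers were extracted with different kits, and these 2 factors cannot be told apart.

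The order of the 4 groups differed by gene. It is an order of means, and for every gene the ranges of some neighbouring groups overlapped. Sgo1, Nuf2 and Bub1b had their highest mean in TG esophagus, followed by CTR esophagus, TG liver and CTR liver. For Bub1b the liver groups were equal at −5.17. For Sgo1 the esophagus groups overlapped each other, and so did the liver groups. For Nuf2 TG liver (−3.00 ± 0.65) overlapped with CTR esophagus (−2.90 ± 0.31), with TG esophagus and with CTR liver. Spc25 was highest in CTR liver (−0.33 ± 0.50) and TG liver (−0.51 ± 0.28), neighbours that overlapped, above TG esophagus (−2.0 ± 0.58) and CTR esophagus (−2.46 ± 0.60). Cenpa had its highest mean in TG esophagus (−1.03 ± 0.53), then TG liver (−1.52 ± 0.44), CTR liver (−1.67 ± 0.26) and CTR esophagus (−2.63 ± 0.71), with n = 3 and SD throughout. Mad2l1 ran from TG esophagus (−1.75 ± 0.19) over CTR liver (−2.02 ± 0.58) and TG liver (−2.22 ± 0.24) to CTR esophagus (−2.65 ± 0.61). Cenpk was highest in TG liver (−2.16 ± 0.26) and CTR liver (−2.40 ± 0.64), above TG esophagus (−2.75 ± 0.28) and CTR esophagus (−2.96 ± 0.62). For Cenpa, Mad2l1 and Cenpk all 4 groups overlapped with a neighbour. Cenph had means of −2.33 ± 0.42 in TG and −2.49 ± 1.00 in CTR esophagus, above CTR liver (−4.37 ± 0.25) and TG liver (−4.66 ± 2.0). Ndc80 had nearly equal means in TG esophagus (−3.86 ± 0.57) and TG liver (−3.89 ± 1.90), above CTR esophagus (−4.71 ± 0.46) and CTR liver (−5.44 ± 0.32).

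Wider lists of the same machinery were read beside the 9 genes, with 52 of 56 listed genes on the array and all 52 tested in the esophagus. Of these 52, 36 had a higher and 16 a lower mean in TG than in CTR esophagus, 0 passed, and the median difference was 0.25 log2. In 11 of the 52 every TG array lay above every CTR array, against 6.32% of all genes tested. Without CTR2, 39 were higher, the median was 0.34 and 28 were separated, against the 14.7% of all genes named above. Without both TG1 and CTR1, 25 were higher and 27 lower, the median was −0.01 and 12 were separated, against 16.5%. Inner kinetochore and centromeric chromatin genes were higher in 11 of 16 (median 0.25), outer kinetochore genes in 8 of 12 (median 0.24), checkpoint genes in 10 of 12 (median 0.32) and cohesion genes in 7 of 12 (median 0.03).

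The members with the smallest p in these lists included Cenpe (NM_173762), a kinesin that carries chromosomes to the spindle equator. Its levels were 2.19, 1.63 and 0.76 in TG esophagi, against 0.13, −0.08 and 0.06 in CTR esophagi. The groups did not overlap, and the difference was 1.49 (SE 0.32, limma adjusted p = 1). Cdc20 (NM_023223), the activator of the anaphase-promoting complex that the checkpoint inhibits, was at 2.91, 2.10 and 1.69 in TG esophagi, against 0.92, 0.81 and 0.70 in CTR esophagi. It differed by 1.43 (SE 0.40). In Cenpe and Cdc20, as in Cenpa, the highest control was CTR1 and not CTR2.

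The checkpoint kinases Bub1 and Ttk differed by 1.24 (SE 0.67) and 1.46 (SE 0.86), and the nuclear pore protein Tpr, which holds Mad1 and Mad2, by 0.62 (SE 0.29). Among outer kinetochore genes Ska1 differed by 1.09 (SE 0.69), Spag5 by 1.24 (SE 0.88) and Mis12 by −0.41 (SE 0.31). Among inner kinetochore genes Cenpm differed by 1.23 (SE 0.79), Cenpp by 0.61 (SE 0.39) and Mis18a by −0.30 (SE 0.19). The cohesion genes, whose products hold sister chromatids together, gave Pds5b −0.26 (SE 0.18), Smc3 −0.28 (SE 0.20), Esco2 1.29 (SE 0.96) and Pttg1 0.31 (SE 0.23). None of these passed.

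In the liver 35 of the 52 genes were tested and 0 passed, with a median difference of 0.02. Tpr had TG levels of 2.79, 2.95 and 2.81 against CTR levels of 2.47, 1.94 and 1.63, without overlap, and differed by 0.84 (SE 0.29, limma adjusted p = 0.761). Kntc1, part of the complex that brings dynein and checkpoint proteins to kinetochores, differed by 1.15 (SE 0.56). Cenpb, which binds a repeated centromeric motif, differed by −0.91 (SE 0.30) and Cenpt, an inner kinetochore link to microtubule binders, by −0.51 (SE 0.27). Zwint differed by 0.23 (SE 0.21), Nsl1 by −0.27 (SE 0.35), Cdca5 by −0.67 (SE 0.50) and Pttg1 by 0.31 (SE 0.23).

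**Figure D5:**
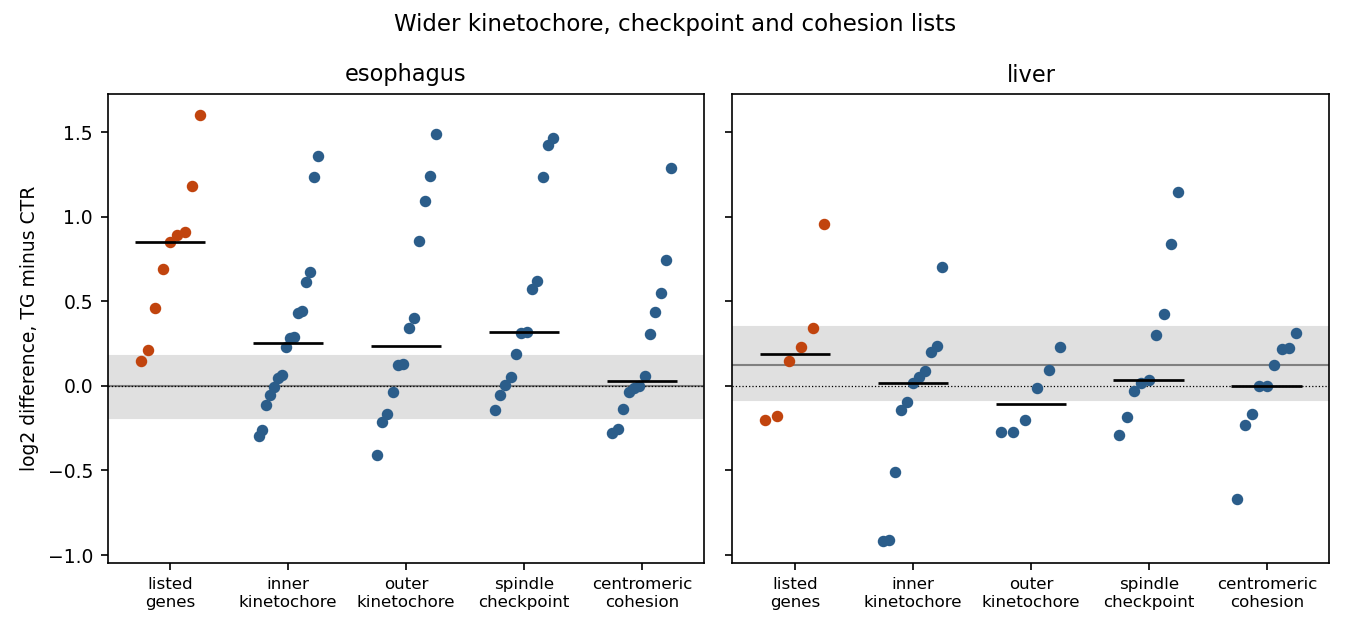
Difference TG minus CTR (log2, vertical axis) of each tested gene (points) of the 9 measured genes (orange) and the 4 wider lists (blue), in esophagus and liver, with bars at list medians; grey spans the quartiles of all tested genes and its line marks their median. In esophagus the 9 genes have a median of 0.85 and the lists medians of 0.03 to 0.32; in liver only the 6 tested of the 9 genes are drawn.

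The profile of the 9 genes over the 6 esophagus arrays was closest to that of Neil3, a DNA glycosylase, with a mean absolute difference of 0.052 log2 between centred profiles. Top2a, the topoisomerase of dividing cells, followed at 0.083, the checkpoint gene Spdl1 at 0.097, Zfp345 at 0.101 and Mxd3 at 0.105. The median over 13916 named genes was 0.498. Among the 9 genes themselves Nuf2 (0.085) and Sgo1 (0.114) lay nearest the common profile and Cenpa (0.614) farthest from it. The profile is the median of these 9 genes, so their nearness to it is partly given and cannot be set beside that of other genes.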

How the data were processed

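The members and all gene lists were chosen with earlier results of these data known. The authors deposited scanner files of spot intensity on a linear scale, made by Agilent Feature Extraction 10.7.1.1 per the file headers, and a further table of log2 values. The submitters' processing notes name limma and give no version of it. Control spots and 1311 outlier spots were left out, and no spot was saturated. Spots of a probe were averaged as log2 of the processed signal minus the array's 75th percentile. Accessions were matched to RefSeq genes of GRCm38.p6 (23374 of 41174 probes, 16535 genes; 17800 probes kept unnamed), and of several probes the brightest was used.

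All genes on the 12 arrays were fitted together in limma 3.58.1 (R 4.3.3; lmFit, then eBayes) as 4 groups without a block, which leaves 8 residual degrees of freedom. Testing required the probe to be well above background on every array of 1 or both compared groups, and was two-sided, with Benjamini-Hochberg adjustment over all genes tested. Estimating the spread from tested genes alone was tried after member values had been seen and passes 1 more gene between control organs (Nuf2); it is given as an alternative. In all 31 alternative settings were run, 27 planned and 4 added after seeing the data: leaving out the animal of CTR2, leaving out replicate 1 of both liver groups, using genes named by RefSeq, and the spread from tested genes. The normexp alternative used median in place of mean spot signals, which the files do not hold, and was followed by quantile normalization. Its values correlated with the authors' table at 0.9999 or more on every array. These 2 settings are therefore nearly the same processing and not separate checks. The fit was also run on simulated data with planted differences and independent noise. Those data held no slide effect and no admixed tissue, so the run cannot speak to either. Files were handled with data.table (1.17.8), jsonlite (2.0.0), Python 3.11.15 and pandas 2.3.3, and figures drawn with matplotlib 3.10.9.

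The sample descriptions give the esophagus and liver of one mouse the same animal number, so the same replicate number pairs organs but not genotypes. Over the 200 most variable probes, arrays of one animal correlated at −0.41 to 0.18 and no esophagus correlated best with its own animal's liver. Arrays of one slide correlated at −0.01 to 0.42, and 2 of the 6 esophagi correlated best with a liver of their own slide. Esophagus TG1 and liver CTR1, which share neither animal nor slide, correlated at 0.34. Named are all 10 genes, up to 4 genes per wider list with the smallest p in esophagus and up to 2 in liver, the 5 genes nearest in profile, and Nanog, except that a gene the rule selects is not reported here; marker genes such as Rag1 were named after their values were seen.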

Additional observations from a re-analysis of the deposited data

How the results depend on the processing

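The median esophagus difference stayed above 0 in every setting that gave one, at 0.36 to 1.06, and none of the 9 genes passed in the esophagus, in the liver or for the difference between organs in any of the settings run. The median was 0.54 to 1.06 with single arrays left out, 0.90 with slide as a fixed block and 0.36 without replicate 1 of both esophagus groups. It was 0.54 with normexp and quantile normalization (called normexp below) and 0.55 with the authors' deposited log2 table, which is nearly the same processing. The count of genes with every TG above every CTR esophagus, 3, became 5 with normexp (5.65% of all genes) and with the authors' table (5.62%), 3 to 8 with single arrays left out (9.19% to 14.7% of all genes for esophagus arrays) and 8 without the animal of CTR2 (14.7%). In liver, 0 became 0 to 2 with single arrays left out (10.2% to 22.2% for liver arrays), 2 without that animal (17.1%) and 2 without replicate 1 of both liver groups (37.2%). The median liver difference of 0.15 turned to −0.03 with quantile normalization, −0.05 with normexp, −0.05 with the authors' table and −0.02 with slide as a fixed block, and lay between −0.05 and 0.49 when an array was dropped. The median between control organs, 0.73, moved to 0.18 with normexp, 0.19 with the authors' table and 0.00 with the common floor. Of the 3 genes passing between control organs, the count became 5 with the replicate block, which changed no other call among the 9 genes. It was 4 with quantile normalization, normexp, the authors' table and the common floor (Cenph gained in each), 2 with slide as a fixed block and 3 to 4 with single arrays left out, where Mad2l1 was gained and Bub1b lost without esophagus CTR2. Without the animal of CTR2 Bub1b no longer passed there (adjusted p = 0.107). The causes were not tested.

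Other values changed sign without passing in either form. For TG minus CTR in liver these were, with quantile normalization, Cenpa at −0.03; with normexp, Cenpa at −0.05, Cenph at 0.04, Cenpk at −0.09 and Sgo1 at −0.01; with the authors' table, Cenpa at −0.05, Cenph at 0.04, Cenpk at −0.10 and Sgo1 at −0.01; with the common floor, Cenph at 0.50 and Bub1b at 0.08; with slide as a fixed block, Cenpa at −0.02, Cenpk at −0.10 and Bub1b at 0.11; within the slide of TG3 and CTR2, Cenph at 1.62, Cenpk at −0.29 and Bub1b at 1.55; without the animal of CTR2, Spc25 at 0.05 and Mad2l1 at 0.13; and without replicate 1 of both liver groups, Cenph at 0.51, Cenpk at −0.12 and Bub1b at 0.59. For the esophagus they were Cenph at −0.56 and Cenpk at −0.24 without replicate 1 of both groups, and −0.41 and −0.14 within the slide of TG1 and CTR2. For the difference between organs they were Cenpk at 0.22 and Nuf2 at 0.57 with quantile normalization, 0.20 and 0.43 with normexp, 0.20 and 0.44 with the authors' table, 0.33 and 0.26 with slide as a fixed block; Cenph at −0.35 and Nuf2 at 0.17 with the common floor; Cenpk at 0.11 with the mean over probes; Cenph at −0.28 without replicate 1 of both esophagus groups; Nuf2 at 0.09 without the animal of CTR2; and Cenph at −0.36 and Cenpk at 0.32 without replicate 1 of both liver groups. With single arrays left out, Cenph ran from −0.32 to 0.68 and Cenpk from −0.10 to 0.53 in esophagus. In liver Cenpa ran from −0.07 to 0.37, Cenph from −1.38 to 0.57, Cenpk from −0.05 to 0.58, Spc25 from −0.45 to 0.05, Mad2l1 from −0.42 to 0.13 and Bub1b from −0.73 to 0.78. For the difference between organs Cenph ran from −0.42 to 1.54, Cenpk from −0.38 to 0.29, Ndc80 from −1.47 to 0.36 and Nuf2 from −0.44 to 0.30.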
